A study of Danio rerio with 48 samples.

Results

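Transcripts of 6 zebrafish genes with a zinc finger symbol, znf1156, znf1014, znf1153, znf1008, znf1138 and znfl2a, were counted in 48 single whole embryos of the laboratory strains TL and AB. They are 6 of the 32520 gene IDs in the deposited tables, and 319 other IDs also carry a symbol that starts with znf. The 6 were picked by ID because they differed between TL and AB in these same embryos, so every TL against AB value given for them is a description, with no test. No numeric threshold was part of that choice, and the name zinc finger rests on the symbols alone. The IDs are ENSDARG00000098800 for znf1156, ENSDARG00000101562 for znf1014, ENSDARG00000103954 for znf1153, ENSDARG00000089940 for znf1008, ENSDARG00000117096 for znf1138 and ENSDARG00000008333 for znfl2a.

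C2H2 zinc finger proteins bind DNA through repeated short folds, each held together by a zinc ion, and many act as transcriptional regulators. In fish, as in mammals, this family has grown by duplication into long chromosomal clusters of similar genes. The first hours of development run on RNA that the mother laid down in the egg; the embryo's own genome then becomes active and the maternal transcripts are cleared.

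TL and AB are 2 wild-type laboratory strains. Embryos came from natural spawning, were kept at 28.5 °C, received no treatment and were taken whole at 4 stages 1 h apart, the first at 2.25 and the last at 5.25 hours post fertilisation (hpf). Each strain and stage had 6 embryos, with embryos 1 to 3 in biological replicate 1 and embryos 4 to 6 in biological replicate 2. Libraries were made by CEL-seq2, which barcodes the 3′ ends of polyadenylated RNA in each embryo, pools the embryos and amplifies the pool.

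Total counts ran from 4931012 to 20036495 per embryo, and the most abundant ID took between 11.31% and 60.45% of them. Each stage had its own library index and each biological replicate its own sequencing runs, so stage and index cannot be told apart, nor can replicate and run. The summed level of 6 maternal oocyte transcripts (buc, zar1, gdf3, mos, org and dazl) had medians of 2407 CPM in TL and 2538 CPM in AB at 2.25 hpf, and of 1197 CPM in TL and 1370 CPM in AB at 5.25 hpf. The sum of 8 zygotic transcripts (tbxta, chrd, vox, ved, gata5, sox32, noto and tbx16) had medians of 0.559 CPM in TL and 0.839 CPM in AB at the first stage and of 1201 CPM in TL and 1393 CPM in AB at the last. CPM stands for counts scaled to a common library size (edgeR's CPM after TMM). It makes no correction between genes, so levels are compared between embryos and not between genes. In whole embryos, fewer cells of a type and less RNA per cell cannot be told apart.

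The gene with the widest gap between the strains was znf1156, which was near 0 in TL and abundant in most AB embryos. At 2.25 hpf its level was 0 CPM in the lowest, 0.483 in the median and 0.817 in the highest TL embryo, against 29.96, 45.6 and 88.7 CPM in AB. These are 32 counts summed over the 6 TL embryos and 3502 over the 6 AB embryos. The stages that followed looked alike: means were 0.912 ± 0.657, 0.805 ± 0.401 and 0.945 ± 0.629 CPM in TL at the 3 later stages in order, against 74.1 ± 50.2, 62.3 ± 25.5 and 67.3 ± 43.8 CPM in AB (SD, n = 6 each). On the log2 scale TL lay below AB by -6.77, -6.30, -6.21 and -6.24 at the 4 stages in order, with SEs from 0.36 to 0.90. The 24 TL embryos held at most 34 counts of znf1156 each, and 2 of them held none.

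Not every AB embryo carried the AB level of znf1156. In 22 of the 24 AB embryos it lay between 29.96 and 138 CPM, which is 283 counts or more. The other 2 were at the level of TL: AB embryo 1 at 3.25 hpf had 5 counts, or 0.362 CPM, and AB embryo 5 at 5.25 hpf had 9 counts, or 0.858 CPM. The lowest of the 22 lay 34.9-fold above the higher of these 2. They had 20036495 and 14349473 total counts. In them znf1014 stood at 23.9 and 14.6 CPM and znf1153 at 18.8 and 24.8 CPM. All 4 values lay inside the range of the other AB embryos of their stage and apart from TL. The embryo at 3.25 hpf had 5.80 CPM of znfl2a, where AB ran from 4.89 to 18.8 CPM and TL reached 4.05 CPM. The embryo at 5.25 hpf had 0.191 CPM of znf1138, where AB reached 0.647 CPM and TL began at 2.01 CPM. The 2 low embryos came from different biological replicates, and no cause of their low values was tested. Because of them, znf1156 did not separate TL from AB at 3.25 and 5.25 hpf, while it did at 2.25 and 4.25 hpf. Without them, a choice made after the values were seen, its log2 difference was -6.56 at 3.25 hpf and -6.51 at 5.25 hpf.

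**Figure D1:**
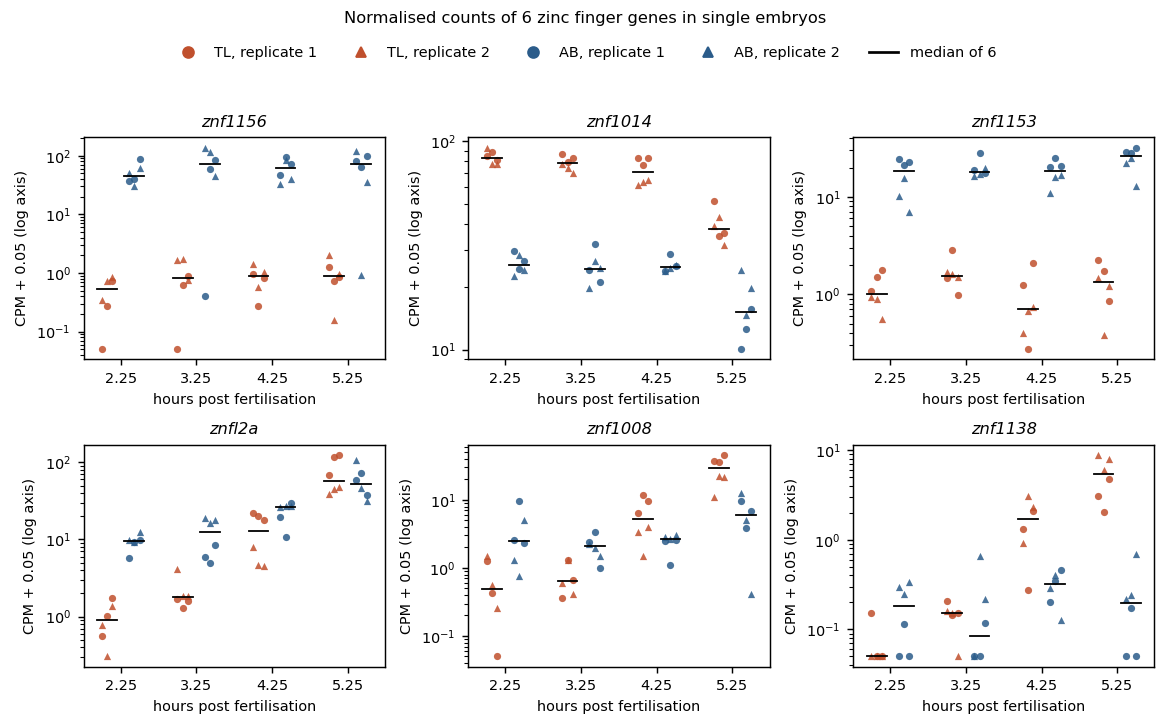
Each point is 1 embryo, with its normalised count (CPM plus 0.05, log axis) against the stage in hpf, for TL (orange, left of each pair) and AB (blue); circles are biological replicate 1, triangles replicate 2, and bars the median of 6. In the first panel 22 AB points lie at 29.96 CPM or above and 2 lie among the TL points.

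The gene znf1014 ran the other way and was the steadiest of the 6. Its lowest, median and highest values at 2.25 hpf were 77.6, 83.0 and 93.1 CPM in TL, against 22.4, 25.3 and 29.6 CPM in AB. At 3.25 hpf the mean was 78.7 ± 5.92 CPM in TL and 24.6 ± 4.35 CPM in AB, and at 4.25 hpf 72.2 ± 9.87 CPM in TL and 25.2 ± 1.87 CPM in AB (SD, n = 6 each). By 5.25 hpf both strains held less of it, with 31.7, 37.7 and 51.4 CPM in TL (lowest, median, highest), against 9.98, 15.1 and 23.9 CPM in AB. TL and AB did not overlap at any of the 4 stages, and TL lay 2.47-fold to 3.21-fold above AB. The log2 difference was 1.68 at 2.25 hpf, 1.65 at 3.25 hpf, 1.52 at 4.25 hpf and 1.31 at 5.25 hpf, with SEs from 0.11 to 0.22.

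Like znf1156, znf1153 was low in TL at every stage, but no AB embryo fell to the TL level. It had 0.510 to 1.71 CPM in TL and 6.90 to 24.5 CPM in AB at 2.25 hpf, with medians of 0.952 in TL and 18.4 in AB. At 5.25 hpf the mean was 1.26 ± 0.656 CPM in TL and 24.9 ± 6.84 CPM in AB (SD, n = 6 each). In between, means were 1.63 ± 0.614 CPM in TL and 19.6 ± 4.53 CPM in AB at 3.25 hpf, and 0.850 ± 0.667 CPM in TL and 18.3 ± 4.94 CPM in AB at 4.25 hpf (SD, n = 6 each). The strains stayed apart in all 48 embryos, with log2 differences of -3.95, -3.60, -4.47 and -4.33 at the 4 stages in order.

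For znfl2a the strain gap was there at the start, and with both replicates pooled it was small at the end. TL embryos held 0.254, 0.858 and 1.71 CPM (lowest, median, highest) at 2.25 hpf, against 5.76, 9.58 and 12.3 CPM in AB. At 3.25 hpf the groups still did not overlap, with 1.24 to 4.05 CPM in TL and 4.89 to 18.8 CPM in AB. They overlapped at 4.25 hpf, with 4.48 to 22.2 CPM in TL and 10.6 to 29.8 CPM in AB, and at 5.25 hpf, with 38.8 to 125 CPM in TL and 31.6 to 107 CPM in AB. The log2 difference was -3.32 ± 0.37, -2.60 ± 0.41, -0.86 ± 0.38 and 0.33 ± 0.33 (± SE) at the 4 stages in order. The replicates disagreed at the later stages. At 4.25 hpf it was -2.25 in replicate 2 and -0.03 in replicate 1, and at 5.25 hpf -0.45 in replicate 2 and 0.88 in replicate 1.

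The sign of the strain difference changed with the stage for znf1008. Its medians were 0.443 and 0.583 CPM in TL at 2.25 and 3.25 hpf, against 2.41 and 2.06 CPM in AB, and 5.15 and 29.1 CPM in TL at 4.25 and 5.25 hpf, against 2.60 and 5.90 CPM in AB. The log2 difference was -2.61 ± 0.75, -1.44 ± 0.44, 1.31 ± 0.43 and 2.22 ± 0.51 (± SE) in stage order. The groups overlapped at every stage, including the last, where TL ranged from 10.8 to 46.1 CPM and AB from 0.370 to 12.6 CPM. Whether the strain difference itself depended on the stage was not tested for any of the 6, because the strain contrast chose them.

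The gene znf1138 had the fewest counts of the 6, was all but absent at first and appeared later in TL. The 6 TL embryos together held 1, 7, 92 and 246 counts at the 4 stages in order, and the 6 AB embryos 8, 9, 15 and 11 counts. At 5.25 hpf each TL embryo had 15 to 61 counts, with a lowest, median and highest level of 2.01, 5.34 and 8.81 CPM, while AB embryos had 0 to 7 counts and 0, 0.146 and 0.647 CPM. TL and AB did not overlap at that stage, with a log2 difference of 4.59 (SE 0.65). It was the only stage at which znf1138 passed the filter on low counts in the fit of the strains; the other 5 genes passed at all 4 stages.

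Of the 6 genes, 4 showed no overlap between TL and AB at 2.25 hpf and 3 at each later stage. The gene znf1014 was among the TL-high ones every time, joined by znf1138 at 5.25 hpf. Over all genes tested, the shares without overlap in either direction were 9.35%, 8.36%, 10.1% and 5.95% at the 4 stages in order. Nothing is read from this contrast for the 6, since it chose them.

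Embryos of one strain and replicate differed most for znf1156 and znf1008. The spread was expressed as edgeR's biological coefficient of variation, fitted with strain and biological replicate as terms. It was 1.16 for znf1156 at 3.25 hpf and 1.03 at 5.25 hpf, above 99.5% and 99.0% of the genes tested; both are the stages with a low AB embryo, and it was 0.483 and 0.417 at 2.25 and 4.25 hpf. For znf1008 it was 1.01 at 2.25 hpf, above 99.1% of genes, and 0.717 at 5.25 hpf. In contrast, znf1014 varied by only 0.0789 at 2.25 hpf and 0.118 at 3.25 hpf, below the lower quartiles over all genes of 0.141 and 0.157, and by 0.199 at 5.25 hpf, above the lower quartile of 0.184. The estimates for znf1153 lay between 0.230 and 0.284, where the medians over all genes were between 0.194 and 0.262.

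The genes most like znf1156 among AB embryos were looked for after the 2 low embryos had been seen. Over the 24 AB embryos, log2 CPM as a deviation from the mean of the 6 embryos of its stage gave a Pearson r of 0.874 with zgc:101559, 0.873 with si:dkey-15h8.15 and 0.873 with znf1161, the highest among 14467 genes. Spearman's rho was 0.562, 0.841 and 0.776 for the 3 genes in the same order. Leaving out the 2 embryos farthest in znf1156 left r at 0.572, 0.790 and 0.744. These are descriptions of points that share libraries and depth, and the 3 were picked for the size of r.

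The same 2 AB embryos stood lowest for all 3 of these genes. The 3 were picked for their r with znf1156, on which these 2 embryos weigh heavily, so this is a description and no separate support. In AB embryo 1 at 3.25 hpf, si:dkey-15h8.15 was at 1.09 CPM, znf1161 at 4.71 and zgc:101559 at 0.725, and in AB embryo 5 at 5.25 hpf they were at 1.05, 3.43 and 2.29 CPM. The level of zgc:101559 averaged 16.9 ± 3.62 CPM in TL and 6.35 ± 0.621 CPM in AB at 2.25 hpf, and si:dkey-15h8.15 averaged 1.95 ± 0.631 CPM in TL and 3.66 ± 1.33 CPM in AB (SD, n = 6 each). For znf1161 the means at that stage were 15.1 ± 5.55 CPM in TL and 21.6 ± 4.34 CPM in AB (SD, n = 6 each). Neither si:dkey-15h8.15 (adjusted p between 0.0676 and 0.71) nor znf1161 (adjusted p between 0.0956 and 0.478) was called between the strains at any stage by edgeR. In zgc:101559 the 2 embryos thus lay farther from TL than the other AB embryos did, and in znf1156 at the TL level.

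**Figure D2:**
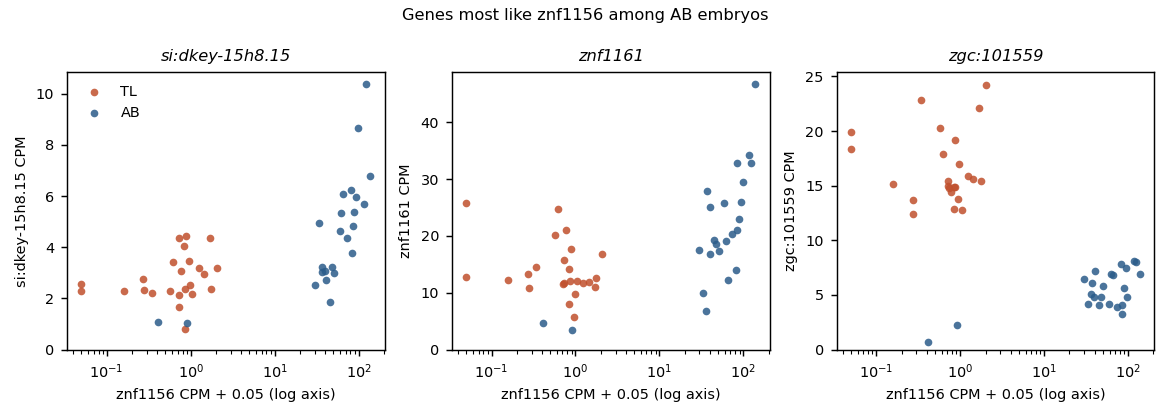
Level of 3 genes (CPM, linear axis) against that of znf1156 (CPM plus 0.05, log axis) in the 24 TL (orange) and 24 AB (blue) embryos, 1 point per embryo. The 2 AB points on the left of each panel are the embryos with 0.362 and 0.858 CPM of znf1156, and they hold the lowest AB values of each of the 3 genes. The 3 genes were picked for their r with znf1156 over the AB embryos, so this is a description.

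In the RefSeq annotation of assembly GRCz12tu, used here only for the order of genes, znf1156 had 20 nearest neighbours of which 7 matched an ID of the tables, and 4 of those have a znf symbol. Between znf1156 and si:dkey-15h8.15 lie 2 genes, and between znf1156 and znf1161 lie 21, while zgc:101559 is on another chromosome. In the comparison of strains, 1 of 2 tested neighbours was called at 2.25 hpf, si:dkey-15h8.17, which was lower in TL by -2.98 on the log2 scale (edgeR, adjusted p = 0.000516), and none of 3, 1 and 2 tested at the later stages. Over all genes 17.8%, 15.7%, 20.4% and 10.7% were called at the 4 stages in order. Nothing is read from so few neighbours.

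The same annotation puts znf1014, znf1008 and znfl2a on one chromosome, apart from znf1156, with 11 genes between znf1014 and znf1008 and 8 between znf1008 and znfl2a. The RefSeq span of znf1014 overlaps 17 other genes, and that of znf1156 overlaps 1. The use of strand in the counting is not given in the sources used here, so reads of overlapping genes cannot be told apart. Genes of similar sequence could also have shared reads. Of the 20 nearest neighbours, 0 have a znf symbol for znf1014, 1 for znf1008 and 2 for znfl2a. In these counts znf1008 and znfl2a are neighbours of each other. The genes znf1153 and znf1138 were not matched in that table and their neighbours were not analysed here. The neighbours of the 3 are partly the same genes. At 2.25 hpf 3 distinct neighbours were called, all lower in TL: zgc:113452 and zgc:174263, which lie near both znf1014 and znf1008, and igfbp1b, which lies near both znf1008 and znfl2a. That made 2 of 8 tested for znf1014, 3 of 5 for znf1008 and 1 of 4 for znfl2a, beside 17.8% of all genes. At 3.25 hpf zgc:113452 and zgc:174263 were again lower in TL, and TADA1, a neighbour of znfl2a, was higher in TL by 0.55 on the log2 scale (adjusted p = 0.0324, edgeR). At 4.25 hpf these 3 were called in the same directions, with sharpin, a neighbour of znf1014, lower in TL, and at 5.25 hpf none of 7, 4 and 3 tested was called. The shares over all genes were 15.7% at 3.25 hpf, 20.4% at 4.25 hpf and 10.7% at 5.25 hpf. With so few and partly shared neighbours, nothing is read from these counts.

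Stage was tested apart from strain, as a contrast averaged over TL and AB in 1 fit of all 48 embryos. Contrasts within TL or AB alone are given as a description. Their gap is the change in the strain difference of a gene, and the strain contrast chose the 6. None of the 6 genes was called between 2.25 and 3.25 hpf, where 1.80% of the 14470 genes tested were called at a Benjamini-Hochberg adjusted p under 0.05. The smallest unadjusted p was that of znfl2a, 0.0266, and it was the only one under 0.05; with DESeq2 none was called either. With biological replicate 2 alone znfl2a passed, at 1.24 on the log2 scale (adjusted p = 0.0416, edgeR).

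Between 3.25 and 4.25 hpf, 3 of the 6 were called and all rose, beside 16.4% of all genes called, with 8.96% rising and 7.46% falling. By edgeR's quasi-likelihood test znfl2a rose by 1.82 on the log2 scale (SE 0.28, adjusted p = 2.67e-06), znf1138 by 2.36 (SE 0.55, adjusted p = 0.0014) and znf1008 by 1.63 (SE 0.41, adjusted p = 0.00339). The contrast within TL was larger than that within AB in each: 2.68 in TL and 0.97 in AB for znfl2a, 3.84 in TL and 0.88 in AB for znf1138, and 2.98 in TL and 0.29 in AB for znf1008, and none of the 3 was called in AB alone. The difference between the strains' contrasts was not tested, since it restates the strain differences that chose the 6. Calls in 1 strain and not in the other are no support for it. The gene znf1138 passed the filter of this fit only through TL embryos of the later stages, so its rise is not read as a result. With biological replicate 2 alone, none of the 3 passed (adjusted p between 0.0573 and 0.22), although znfl2a still stood at 0.87, znf1138 at 2.11 and znf1008 at 1.23. With the biological replicate as a block, znf1153 was called as well, at -0.58 (adjusted p = 0.0444, edgeR).

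In the last hour znfl2a and znf1008 rose further and znf1014 fell, so that 3 of the 6 were called, beside 42.5% of all genes (20.3% rising and 22.2% falling). The rise was 1.93 for znfl2a (SE 0.27, adjusted p = 7.49e-08, edgeR) and 1.81 for znf1008 (SE 0.39, adjusted p = 0.000154, edgeR) on the log2 scale. The level of znf1014 fell by 0.76 (SE 0.10, adjusted p = 1.39e-08, edgeR), with -0.87 in TL and -0.65 in AB, both called. Within the strains znf1008 stood at 2.26 in TL, which was called, and at 1.36 in AB, which was not (adjusted p = 0.0636, edgeR). For znf1138 the contrast was 0.72 (SE 0.51, adjusted p = 0.274, edgeR), with 1.73 in TL and -0.30 in AB. This gene passed the filter only through TL embryos of the later stages, so a rise in TL was built into its entry and is not read as a result. Neither znf1156, at 0.08 (SE 0.56), nor znf1153, at 0.50 (SE 0.26), was called.

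**Figure D3:**
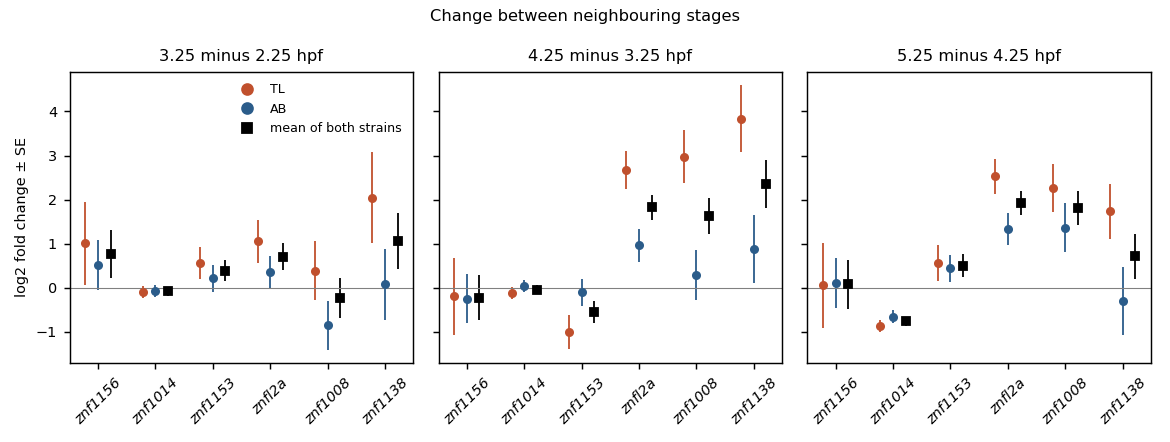
Change in log2 level (± SE, edgeR) of the 6 genes over the 3 steps between neighbouring stages, in TL (orange), in AB (blue) and as the mean of both (black squares). In the middle panel the means of znfl2a, znf1008 and znf1138 lie at 1.82, 1.63 and 2.36, and in the right panel znf1014 lies at -0.76.

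Over the whole window, from 2.25 to 5.25 hpf, 4 of the 6 were called, 3 rising and 1 falling, beside 51.9% of all genes (25.8% rising and 26.1% falling). They were znfl2a at 4.46 (SE 0.31, adjusted p = 4.98e-17), znf1138 at 4.14 (SE 0.63, adjusted p = 2.2e-07), znf1008 at 3.21 (SE 0.42, adjusted p = 7.82e-09) and znf1014 at -0.89 (SE 0.10, adjusted p = 8.99e-11), by edgeR. Since znf1138 passed the filter only through TL embryos of the later stages, a rise was built into its entry and is not read as a result. In AB alone 2 were called, znfl2a at 2.65 and znf1014 at -0.69, while znf1008 stood at 0.80 and znf1138 at 0.66. In TL alone all 4 were called, with 6.26 for znfl2a, 5.62 for znf1008 and -1.09 for znf1014. The gaps between TL and AB restate the strain differences that chose the 6 and are a description. The TL value of znf1138 starts from a single count and depends on the prior count of the fit. So does its mean over both strains, 4.14. The levels of znf1156 and znf1153 had contrasts of 0.62 (SE 0.58) and 0.34 (SE 0.25), neither called. These p-values measure the spread between single embryos.

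The genes with the most similar pattern over all 48 embryos follow the split of strain and stage that all points share. With znf1156 they were GLB1L (r of 0.902), METTL23 (0.885) and si:dkey-20i20.14 (0.884), with znf1014 SETD4 (0.938), tgfb1a (0.914) and ENSDARG00000090551 (0.913), and with znf1153 si:ch211-251f6.7 (0.937), si:dkey-20i20.14 (0.936) and si:ch211-209l18.4 (0.934). The later genes had FKBP7 (0.795), si:dkey-269o24.6 (0.789) and SNORA62 (0.779) for znf1008, EN2 (0.836), si:dkey-13m3.2 (0.782) and rxfp3.3a1 (0.775) for znf1138, and ppp1r14ab (0.913), YWHAE (0.889) and malat1 (0.887) for znfl2a. Each r is Pearson's, on log2 CPM. Symbols are spelled as the table of names gives them.

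The biological replicates differed for znf1153 and znfl2a. At 2.25 hpf znf1153 was lower in replicate 2 than in replicate 1, with 0.745 CPM in replicate 2 and 1.39 in replicate 1 on average in TL, and 10.9 in replicate 2 and 22.8 in replicate 1 in AB. The log2 difference was -1.02 (SE 0.24, adjusted p = 0.0216, edgeR), and 6.89% of all genes were called in that comparison. It was negative at the other stages too, at -0.21, -0.73 and -0.62, none of them called. At 3.25 hpf znfl2a was higher in replicate 2, by 1.18 (SE 0.27, adjusted p = 0.0492, edgeR), beside 1.10% of all genes called. Its means there were 2.56 CPM in replicate 2 and 1.48 in replicate 1 in TL, and 17.7 in replicate 2 and 6.34 in replicate 1 in AB, where the replicates did not overlap in either strain. In TL or AB alone neither of the 2 calls held.

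None of the 6 was called between replicates at 4.25 hpf, beside 5.72% of all genes, or at 5.25 hpf, beside 11.7%; 2 had an unadjusted p under 0.05 at 4.25 hpf, znf1014 at 0.038 and znf1153 at 0.0317, and 1 at 5.25 hpf, znf1138 at 0.0101. DESeq2 called none at 4.25 hpf and 1, znf1138, at 5.25 hpf. The means of both strains hid a difference in TL for znfl2a: at 4.25 hpf TL embryos held 4.48 to 7.95 CPM in replicate 2 and 17.8 to 22.2 in replicate 1, while AB embryos held 26.4 to 27.1 CPM in replicate 2 and 10.6 to 29.8 in replicate 1. In TL alone the replicate difference was called at 4.25 hpf, at -1.83 (adjusted p = 0.0119, edgeR), and at 5.25 hpf, at -1.23 (adjusted p = 0.0261, edgeR). The strain difference of znfl2a thus moved with the replicate, to -2.25 in replicate 2 and -0.03 in replicate 1 at 4.25 hpf and to -0.45 in replicate 2 and 0.88 in replicate 1 at 5.25 hpf.

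For znf1008 the strain difference at 4.25 hpf was 0.03 in replicate 2 and 2.13 in replicate 1, with TL means of 2.91 CPM in replicate 2 and 9.26 in replicate 1. The TL means of znf1138 at 5.25 hpf ran the other way, with 7.54 CPM in replicate 2 and 3.23 in replicate 1. Beside these values, the summed level of the 8 zygotic transcripts in TL embryos had medians of 117 CPM in replicate 2 and 272 in replicate 1 at 4.25 hpf, and of 938 in replicate 2 and 1817 in replicate 1 at 5.25 hpf. In AB it was 149 CPM in replicate 2 and 233 in replicate 1 at 4.25 hpf, and 1068 in replicate 2 and 2086 in replicate 1 at 5.25 hpf. The summed level of 5 enveloping layer transcripts (krt4, krt8, cldne, cyt1 and klf17) moved alike at 4.25 hpf. Its medians there were 73.4 CPM in replicate 2 and 216 in replicate 1 in TL, and 177 in replicate 2 and 277 in replicate 1 in AB. At 2.25 hpf it ran the other way. Medians were then 6.95 CPM in replicate 2 and 1.51 in replicate 1 in TL, and 22.6 in replicate 2 and 9.96 in replicate 1 in AB. Between the strains the medians of this sum were 2.60 CPM in TL and 11.1 in AB at 2.25 hpf, and 10.7 in TL and 24.8 in AB at 3.25 hpf. They were 131 in TL and 204 in AB at 4.25 hpf, and 1935 in TL and 2680 in AB at 5.25 hpf. For the single yolk syncytial layer gene, mxtx2, medians were 0.134 CPM in TL and 0.250 in AB at 2.25 hpf. They were 8.50 in TL and 12.3 in AB at 3.25 hpf, and 66.6 in TL and 72.7 in AB at 4.25 hpf. At 5.25 hpf mxtx2 had 147 in TL and 101 in AB. The part of these shifts in the values of the 6 genes was not tested.

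**Figure D4:**
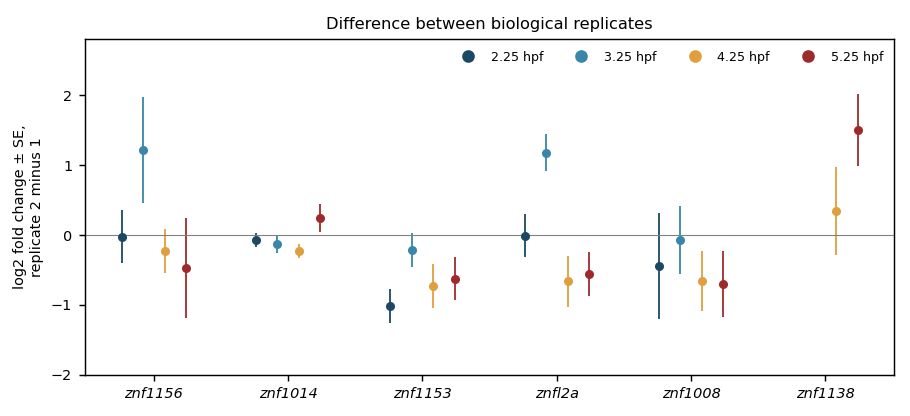
Log2 difference between biological replicates, 2 minus 1 (± SE, edgeR with strain as a term), for each of the 6 genes at each stage it passed the filter. The 2 called values are znf1153 at 2.25 hpf (-1.02) and znfl2a at 3.25 hpf (1.18).

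The other 319 genes with a znf symbol give the family background. The strain tests on them took the 6 embryos of a strain as separate units, although these came from 2 biological replicates of 3. Sums of 3 embryos gave fewer calls at every stage, as listed at the end. Of those tested between TL and AB, 21 of 115 were called at 2.25 hpf, which is 18.3%, with 10 higher and 11 lower in TL; over all genes 17.8% were called. At 3.25 hpf it was 22 of 121, or 18.2%, with 8 higher and 14 lower in TL, beside 15.7% of all genes. At 4.25 hpf 26 of 127 were called, or 20.5%, with 14 higher and 12 lower, beside 20.4%, and at 5.25 hpf 15 of 119, or 12.6%, with 10 higher and 5 lower, beside 10.7%. These pooled shares lay near those over all genes, so nothing particular to the znf genes as a whole is read from them. With 1 biological replicate left out, between 9 and 12, 7 and 8, 11 and 34 and 5 and 7 of the other znf genes were called at the 4 stages in order. The shares of all genes are not set beside these counts, and nothing about the znf genes is read from them. Genes with a number of 970 or above, the range of 5 of the 6 members, were called in 20.6%, 24.3%, 24.4% and 28.2% of those tested at the 4 stages in order, and genes with a lower number in 17.3%, 15.5%, 18.8% and 5%. The median absolute log2 difference was 0.631, 0.634, 0.672 and 0.654 in the high-numbered genes and 0.28, 0.324, 0.305 and 0.314 in the lower-numbered. Over all genes it was 0.295, 0.293, 0.303 and 0.319. The 2 classes were not tested against each other or against all genes, nor was the part of low counts. Some of the high-numbered genes called, such as znf1022 and znf1117 at 2.25 hpf, passed the filter mainly through AB embryos. Their calls were partly built in, so no contrast of the classes is read from these shares.

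Of these other genes, the ones with the largest called differences included znf1096, with 0.530 ± 0.455 CPM in TL and 12.2 ± 4.44 CPM in AB at 5.25 hpf (SD, n = 6 each), a log2 difference of -4.45 (SE 0.46, adjusted p = 1.34e-05, edgeR). At 2.25 hpf znf1022 had -3.84 and znf1117 -3.05, at 3.25 hpf znf973 had -3.22 and znf1028 -2.66, and at 4.25 hpf znf1112 had -3.41 and znf1055 -3.24. The 6 TL embryos held 25 counts of znf1096, 10 of znf1022 and 12 of znf1117 in all at these stages. They held 22 of znf973, 19 of znf1112 and 46 of znf1055. These genes passed the filter mainly through AB embryos, so a difference was partly built into their entry and is not read as a result. The znf1028 difference was not called at the other stages, with -0.67, -0.35 and -1.12 at 2.25, 4.25 and 5.25 hpf. That of znf1055 was -0.37 at 5.25 hpf (not called). Higher in TL were znf1003 at all 4 stages, with log2 differences of 2.12, 1.98, 1.68 and 2.41 in order, znf45l with 1.33, 1.92, 1.36 and 1.25 and ZNF532 with 1.45, 1.76, 1.54 and 1.67, each also called at all 4 stages, and znf992 with 2.69 at 5.25 hpf. The last pattern was like that of znf1138: znf992 had 0.315 CPM in TL and 0.317 in AB at 2.25 hpf, and 16.1 ± 6.28 CPM in TL and 2.50 ± 1.83 CPM in AB at 5.25 hpf (SD, n = 6 each). Lower in TL at 5.25 hpf was also znf1124, at -1.39 (SE 0.38, adjusted p = 0.0278, edgeR). Each of znf1003, ZNF532, znf973, znf1028 and znf1124 lost its call at one or more of the stages tried when a biological replicate was left out (adjusted p between 0.0593 and 0.728). All these tests took the 6 embryos of a strain as separate units. With sums of 3 embryos, 10 of the called differences picked as the 2 largest each way per stage lost their call. The calls named here, those at all 4 stages included, thus rest on single embryos.

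**Figure D5:**
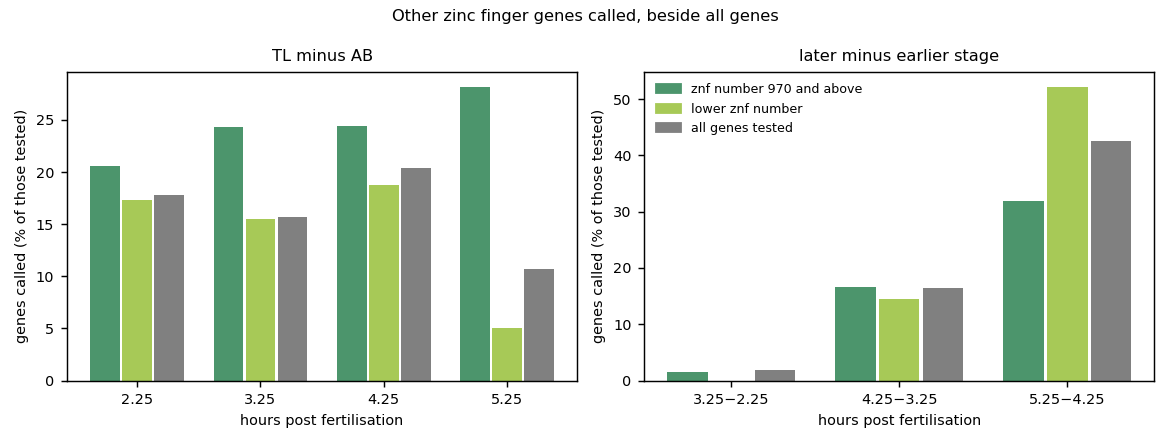
Share of genes called (% of those tested, adjusted p under 0.05, edgeR) among other znf genes numbered 970 and above, those with a lower number and all genes, for TL minus AB at each stage (left) and for the steps between stages (right). The share of the high-numbered genes runs from 20.6% to 28.2% in the left panel, and no lower-numbered gene was called between 2.25 and 3.25 hpf. Some high-numbered genes passed the filter mainly through AB embryos, so the shares are a description.

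Over the first step between stages 1 of 158 other znf genes was called, or 0.633% beside 1.80% of all genes. In the second 25 were called (17 rising and 8 falling), or 15.8% beside 16.4% (8.96% rising and 7.46% falling). In the last 68 were called (37 rising and 31 falling), or 43% beside 42.5% (20.3% rising and 22.2% falling). From 2.25 to 5.25 hpf 79 were called, with 48 rising and 31 falling, or 50% beside 51.9% of all genes (25.8% rising and 26.1% falling). The split into rises and falls was not tested, and nothing particular to the znf genes is read from it. The largest rises were those of znf1063, to 177 ± 87.5 CPM in TL and 209 ± 57.0 CPM in AB at 5.25 hpf (SD, n = 6 each), and of znf1060, to 95.3 ± 26.7 CPM in TL and 48.6 ± 7.23 CPM in AB (SD, n = 6 each). Their log2 changes were 10.45 (SE 0.67, adjusted p = 1.97e-18, edgeR) and 7.82 (SE 0.47, adjusted p = 1.97e-19, edgeR). At 2.25 hpf the 6 TL embryos together held 6 counts of znf1063 and 9 of znf1060. The 6 AB embryos held 12 of znf1063 and 41 of znf1060. Both genes passed the filter through embryos of the later stages, so a rise was built into their entry and is not read as a result. The largest falls were -2.68 for znf106b (SE 0.36) and -2.49 for ZNF438 (SE 0.16). Among the members, the largest rise was that of znfl2a, at 4.46, and the single member that fell was znf1014, at -0.89.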

How the data were processed

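The authors deposited 1 table per stage, which holds whole-number counts, not normalised, for each gene ID in 12 embryos, per the file headers. The submitters' processing notes name bcl2fastq 2.19.0.316, STAR 2.7.1a and edgeR 3.26.8. The genome build, counting program, use of strand and treatment of molecular identifiers are not given in the sources used here. Symbols were found for 29201 of 32520 IDs.

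The 6 genes and all lists were chosen with earlier results of these data known. Tests used edgeR 4.0.16 (quasi-likelihood, TMM, filterByExpr, R 4.3.3, limma 3.58.1), with Benjamini-Hochberg adjustment over all genes and a threshold of 0.05. SE is the log2 fold change over the root of F. Strains and biological replicates were compared at each stage over 12 embryos, and stages in 1 fit of 48 embryos. The scripts were tested on simulated data. Alternatives were DESeq2 1.42.0, no filter, the biological replicate as a block, each replicate or strain alone, sums of 3 embryos, raw totals and leaving out the most abundant ID.

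Named genes were the 6, the 3 most correlated with each over 48 embryos (log2 CPM, prior count 2), and, of other znf genes averaging 5 or more counts in the higher group, the 2 largest called differences each way per stage and the 2 largest called rises and falls from 2.25 to 5.25 hpf. Genes most like znf1156 within AB, and neighbours of the 6, were added after the values were seen. Per the labels' protocols each biological replicate was sequenced separately, so its number pairs TL with AB. Across genes, the TL and AB deviations of a replicate had correlations of 0.259, 0.221, 0.164 and 0.457 in stage order.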

Additional observations from a re-analysis of the deposited data

Results flagged for a closer look

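Within each strain and stage, 48 groups of 6 embryos were screened for an embryo far from the rest. An embryo was flagged where its gap to its nearest neighbour took up more than 0.625 of the group's range, and 7 were found. Chance flags about 1 in 20 groups where values are normally distributed, which was not tested here and does not hold at few counts. No excess over chance is read from the 7. AB embryo 2 at 4.25 hpf was lowest for znf1008, with 1.04 CPM (7 counts), and highest for znf1014, with 28.8 CPM (193 counts). AB embryo 2 at 3.25 hpf stood highest for znf1153, with 28.5 CPM, next to 19.6 CPM. TL embryo 4 at 3.25 hpf had 4.05 CPM of znfl2a, next to 1.81 CPM. For znf1138 the 3 values were 0.103 CPM in TL embryo 1 at 2.25 hpf (1 count), 0.607 CPM in AB embryo 5 at 3.25 hpf (5 counts) and 0.647 CPM in AB embryo 6 at 5.25 hpf (7 counts), all at few counts. The screen used CPM and not its log. On that scale the 2 AB embryos low in znf1156 were not flagged, since the other AB embryos of their groups also lay far apart. The log scale was not screened.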

How the results depend on the processing

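Of the 6 genes, 5 had no overlap between TL and AB at 2.25 hpf with either replicate left out, 4 to 5 at 3.25 hpf, 4 to 5 at 4.25 hpf and 3 to 5 at 5.25 hpf. In these comparisons of 3 embryos with 3, the shares of all genes without overlap were 28.1% to 32.5%, 26.1% to 26.9%, 28.6% to 39.4% and 23.4% to 24.7% in stage order, far above those with 6 embryos a strain. The strain difference of znfl2a at 5.25 hpf ranged from -0.45 (without replicate 1, a reversal) to 0.88 (without replicate 2). With 1 replicate left out, members called numbered 0 to 1 at 3.25 minus 2.25 hpf (1.23% to 2.06% of all genes), 0 to 3 at 4.25 minus 3.25 hpf (8.1% to 12.2%), 3 at 5.25 minus 4.25 hpf (24.7% to 39.1%) and 4 at 5.25 minus 2.25 hpf (36.4% to 49.7%). In AB alone they numbered 0 at 4.25 minus 3.25 hpf (6.26%) and 2 at 5.25 minus 2.25 hpf (40.6%). With DESeq2, znf1153 passed at 5.25 minus 4.25 hpf, at 0.58 (adjusted p = 0.0493).

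Between biological replicates, 0 members were called at 2.25 hpf in TL alone (0.38% of all genes) and in AB alone (4%), and 0 at 3.25 hpf among TL (1.08%) and among AB embryos (0%). Among TL embryos 1 was called at 4.25 hpf (2.23%) and 1 at 5.25 hpf (2.06%). Without the filter it was 1 at 4.25 hpf (5.75%) and 1 at 5.25 hpf (7.29%), and with DESeq2 1 at 5.25 hpf (17.5%).

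Of the other znf genes, the first step gave 3 calls with DESeq2, 0 without the filter, 0 in TL, 0 in AB, 0 without the 2 AB embryos low in znf1156 and 0 to 1 with 1 replicate left out. The step to 4.25 hpf gave 14 in TL, 11 in AB and 12 to 22 with 1 replicate left out, and that to 5.25 hpf 44 in AB and 37 to 61. Strain calls numbered 9 to 12, 7 to 8, 11 to 34 and 5 to 7 at the 4 stages with 1 replicate left out, 11, 12, 5 and 1 with sums of 3 embryos, and 35 at 2.25 hpf without the filter. With the replicate block they numbered 24, 24, 33 and 21, and the block added 1 call among the 6, znf1153 at 4.25 minus 3.25 hpf, at -0.58. The shares of all genes called under each setting are not set beside these counts. Nothing particular to the znf genes is read from them, and the cause of these shifts was not tested.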
